A study of Mus musculus with 12 samples.

Results

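The coinhibitory receptor genes of CD4+ T cells were followed across 4 sorted populations: Pdcd1, Lag3, Tigit, Havcr2, Ctla4, Cd160, Btla, Cd200, Entpd1 and Cd96. These 10 genes were taken by symbol from the 43626 genes of the count matrix, and 10 of 10 were among the 13238 genes with enough counts to test. RNA was sequenced from splenic CD4+ T cells in 12 libraries, 3 per group. In donor mice 1 copy of Eomes, which encodes a T-box transcription factor, was floxed and the other carried a reporter for green fluorescent protein (GFP), so cells that transcribe the locus become GFP-positive. Donors without cre are called Het, and donors with Lck-cre, which is driven by a T-lineage promoter, are called KO. In all groups the transferred cells were naive CD45RBhi CD25- CD4+ T cells, and the hosts were adult male Rag2-/- mice, which lack T and B cells of their own but keep innate cells. Spleens were taken after 3 weeks, and their CD4+ cells were sorted by GFP. This gave a GFP-negative and a GFP-positive group for each genotype. Libraries of a genotype that share a number came from the same spleen, so there were 6 recipients. Ages and strain backgrounds are not given in these labels.

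Coinhibitory receptors are surface proteins that dampen T cell activation. PD-1 (Pdcd1) and BTLA carry cytoplasmic tyrosine motifs that recruit the phosphatases SHP-1 and SHP-2, CTLA-4 competes with the costimulatory receptor CD28 for CD80 and CD86, and LAG-3 binds major histocompatibility complex class II. TIGIT and CD96 bind the poliovirus receptor (Pvr), which the activating receptor CD226 also binds, while CD39 (Entpd1) is an enzyme that removes phosphate from extracellular ATP. Activated and chronically stimulated T cells are known to carry several of these receptors together, and EOMES is known for its role in such cells.

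Total counts ran from 11492908 to 18167236 in the GFP-negative libraries and from 2116894 to 8608902 in the GFP-positive ones, which also came from fewer sorted cells (18000 to 117000 against 645000 to 2100000). The depth and the number of sorted cells therefore cannot be told apart from the GFP sort. Eomes had 9.19, 3.68 and 2.16 counts per 1000000 (CPM, scaled between libraries by TMM) in the Het GFP-negative libraries and 115, 123 and 89.8 in the Het GFP-positive ones. It had 4.73, 1.95 and 2.19 CPM in the KO GFP-negative and 46.6, 45.7 and 31.6 in the KO GFP-positive libraries. Gene counts do not show whether the deleted part was read. Of all counts, 4 dominant features, mitochondrial ribosomal RNA among them, took 16.3% to 58.3% per library. The share was highest in replicate 2 of Het GFP-positive (58.3%) and of KO GFP-positive cells (54.3%), which left 1818810 and 967089 counts for other genes. On the first principal component the KO GFP-positive libraries were spread widely, at -17.8, 85.4 and 29.6 for replicates 1 to 3.

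The CD4 T cell list was detected in full (6 of 6 genes, summed 1167 to 2144 CPM), and its sum was lower in the GFP-positive library in 6 of 6 recipients. Cd4, the largest part of that sum, averaged 773 CPM in Het GFP-negative and 457 CPM in Het GFP-positive cells. Cd3e went the other way, at 179 and 218 CPM, and in KO cells it was at 196 and 197 CPM. In Het cells 2 of the 6 genes were called lower and none higher by the test described below, against 3.45% of all tested genes. Of the myeloid list, 11 of 11 genes were detected in every group, none was at 0 and none was called in Het cells. Its largest members in Het GFP-positive cells were S100a9, S100a8 and Lyz2, with means of 824, 515 and 452 CPM. In Het libraries the summed level of the list was 186 to 1515 CPM without and 459 to 3427 CPM with GFP. In KO libraries it was 44.4 to 608 CPM without and 283 to 1211 CPM with GFP. It was higher in the GFP-positive library in 6 of 6 recipients, as were the erythroid sum (3.68 to 75.9 CPM GFP-negative, 16.8 to 181 GFP-positive) and the cell cycle sum (1568 to 2577 and 1848 to 3075). The CD8 T sum was low (0.390 to 4.57 CPM), and the plasmacytoid dendritic sum was 19.5 to 63.2 CPM. The NK sum was 6.60 to 72.8 CPM. It was highest in KO recipient 1 (65.9 CPM GFP-negative and 72.8 GFP-positive), and Klrk1 was its largest part, at up to 57.1 and 65.0 CPM in these KO groups. The regulatory T sum was 88.7 to 282 CPM and higher with GFP in 3 of 6 recipients. Of its 6 genes 1 was called higher and 1 lower in Het cells, against 3.45% of all tested genes. Foxp3 averaged 2.01 and 0.382 CPM in Het GFP-negative and GFP-positive cells and 6.25 and 3.67 CPM in those of KO. Ikzf2 averaged 21.2 and 132 CPM in Het and 30.6 and 35.3 CPM in KO. The follicular helper sum was 22.6 to 45.4 CPM in Het GFP-negative and 51.5 to 76.5 CPM in Het GFP-positive libraries. In KO it was 34.0 to 56.2 and 25.9 to 118 CPM. This sum was higher with GFP in 5 of 6 recipients. Y-linked genes summed to 0 to 32.0 CPM in Het and 41.5 to 221 CPM in KO libraries, a difference that cannot be told apart from the genotype. The sex of the donors is not given in these labels. In Het recipient 3 the Y-linked sum was 0.0568 CPM GFP-negative and 0 CPM GFP-positive, although the hosts are given as male. Its myeloid sums were 1515 and 3427 CPM, and the cause was not tested. In these bulk samples, fewer cells carrying a receptor and less RNA per cell cannot be told apart.

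Of the 10 genes, 4 lie on chromosome 16 (mm10, GRCm38). Tigit (chr16:43648861-43664184, minus strand) is followed after 1560 kb by Btla (chr16:45224315-45252895, plus strand), then after 129 kb by Cd200 (chr16:45382135-45409053, minus strand) and after 627 kb by Cd96 (chr16:46035657-46120251, minus strand). Pdcd1 (chr1:94038305-94052553, minus strand) and Ctla4 (chr1:60887000-60915832, plus strand) share chromosome 1. Lag3 is at chr6:124904361-124911705, Havcr2 at chr11:46454935-46481255, Cd160 at chr3:96798763-96829351 and Entpd1 at chr19:40612366-40741602. Exons of Cd160 overlap those of Pdzk1 by 68 bases, and Pdzk1 had 131 counts in all against 4572 for Cd160. No exon of the other 9 genes overlapped another gene.

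Promoters are shown for a gene called lower with GFP in Het cells (Cd96), 2 called higher there (Pdcd1, and Tigit with the recipient as a block) and the only one with a T-box match (Ctla4), so that the letters before their start sites can be compared. RefSeq (GRCm38.p6) gave promoters for 9 of the 10 genes, and Lag3 had no entry. The 250 bases before the start site are printed 5′ to 3′ on the gene's strand, with matches to the T-box letters AGGTGT or the RUNX letters TGTGGT, on either strand, in capitals:
Cd96 (chr16:46120249-46120498, minus strand): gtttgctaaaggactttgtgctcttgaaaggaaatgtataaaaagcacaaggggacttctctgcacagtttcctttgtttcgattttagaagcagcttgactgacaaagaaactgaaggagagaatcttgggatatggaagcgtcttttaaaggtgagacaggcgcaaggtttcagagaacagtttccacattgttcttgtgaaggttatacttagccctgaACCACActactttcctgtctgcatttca
Tigit (chr16:43664185-43664434, minus strand): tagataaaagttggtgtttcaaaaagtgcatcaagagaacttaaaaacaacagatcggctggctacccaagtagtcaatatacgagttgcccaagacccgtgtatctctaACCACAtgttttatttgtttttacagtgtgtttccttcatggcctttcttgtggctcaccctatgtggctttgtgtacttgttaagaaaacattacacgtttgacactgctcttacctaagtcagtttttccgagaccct
Pdcd1 (chr1:94052554-94052803, minus strand): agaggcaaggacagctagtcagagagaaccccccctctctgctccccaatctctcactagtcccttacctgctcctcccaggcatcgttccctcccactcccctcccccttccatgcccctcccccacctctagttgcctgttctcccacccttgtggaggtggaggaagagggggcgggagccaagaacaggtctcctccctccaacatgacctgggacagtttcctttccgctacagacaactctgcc
Ctla4 (chr1:60908775-60909024, plus strand): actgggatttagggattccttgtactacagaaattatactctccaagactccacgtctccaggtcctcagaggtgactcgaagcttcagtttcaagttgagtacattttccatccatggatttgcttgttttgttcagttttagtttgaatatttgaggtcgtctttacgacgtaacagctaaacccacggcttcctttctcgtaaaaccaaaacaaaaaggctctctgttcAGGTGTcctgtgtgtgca

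The T-box letters occurred in the promoter of 1 of 9 genes (Ctla4, from position -18 relative to the start site), against 11.8% of all 32851 promoters. The RUNX letters occurred in 5 of 9 (Tigit, Havcr2, Cd160, Btla and Cd96), against 14% of all promoters. In Cd96 and Tigit they lie on the opposite strand and so appear as the capitals ACCACA, from positions -28 and -140. The NFAT letters TGGAAA occurred in 2 of 9 (Ctla4 and Cd96; 18.6% of promoters) and the AP-1 letters TGANTCA in 1 of 9 (Havcr2; 6.75%). None of these matches overlapped another. Cd160 and Entpd1 have 2 promoters each, so a share of genes and a share of promoters are not the same quantity. A match describes letters only, and Cd96 and Tigit, which both hold the RUNX letters, differed in opposite directions between the sorted fractions.

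Compared per kilobase of exon, the receptors kept neither the same leader nor the same order across the sorts. Cd96 had the highest level in both GFP-negative groups, with 80.9 ± 16.7 CPM per kb in Het and 76.9 ± 10.6 in KO cells (SD, n = 3). Tigit had the highest in both GFP-positive groups, with 85.8 ± 39.0 in Het and 34.7 ± 8.32 in KO cells (SD, n = 3). In KO GFP-positive cells its neighbour Cd96, at 30.7 ± 13.9 CPM per kb, did not differ from it beyond the spread. Nor did Pdcd1 (46.3 ± 18.5) and Ctla4 (41.9 ± 28.9) differ from Tigit beyond the spread in Het GFP-positive cells. Lag3 ranked 9 of 10 in Het GFP-negative cells (5.54 ± 3.43) and 4 of 10 in Het GFP-positive cells (29.3 ± 9.97). Cd200, a ligand of the inhibitory receptor CD200R that T cells also carry, was lowest in all 4 groups (1.70 to 3.34 CPM per kb).

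**Figure D1:**
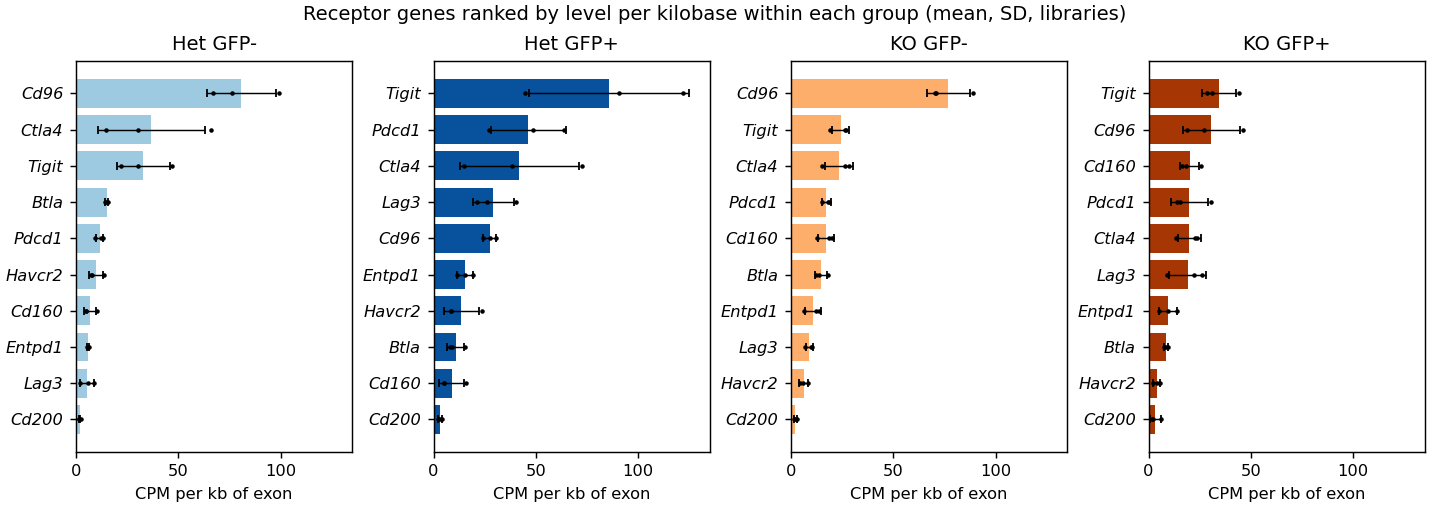
Level of each of the 10 receptor genes in CPM per kb of exon (bar, mean; whisker, SD; dots, the 3 libraries), ranked within each of the 4 groups on a shared axis from 0. Cd96 leads both GFP-negative groups at 80.9 and 76.9, Tigit leads both GFP-positive groups at 85.8 and 34.7, and Cd200 is last in all 4.

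Het GFP-positive and Het GFP-negative cells were compared first, to find which genes mark cells that express Eomes. Pdcd1, Lag3 and Entpd1 were higher and Cd96 was lower in GFP-positive cells, by 2.60-fold to 5.34-fold, and the other 6 genes did not pass the test. These were 4 of 10 genes, against 3.45% of all tested genes (1.82% higher and 1.63% lower), by edgeR's quasi-likelihood test at an adjusted p of 0.05. With the recipient as a block, Tigit joined them, which gave 5 of 10 genes against 22.2% of all. The median log2 fold change was 0.68 over the 10 genes and -0.02 over all tested genes. Libraries of the 2 groups did not overlap for 4 of the 10 genes, against 27.3% of all genes. These were the 4 called genes, and a call favours groups that do not overlap, so this is not separate support.

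PD-1's gene, Pdcd1, had 25.0, 23.6 and 18.3 CPM in Het GFP-negative replicates 1 to 3 and 123, 51.9 and 93.4 CPM in the GFP-positive ones. Every GFP-positive library thus lay above every GFP-negative one, and the lowest GFP-positive value was that of replicate 2. Its fold change was 4.04 (log2 2.01, SE 0.33, adjusted p = 0.00818), and it stayed called without any 1 of the 6 Het libraries (adjusted p 0.00632 to 0.0474).

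Lag3 had 18.8, 4.29 and 12.0 CPM in Het GFP-negative and 55.2, 44.9 and 85.4 CPM in Het GFP-positive libraries. The groups did not overlap, and the lowest value, in GFP-negative replicate 2, rested on 63 counts. Its fold change was 5.34 (log2 2.42, SE 0.49, adjusted p = 0.0219). The call was lost without GFP-negative replicate 2 (log2 2.03, adjusted p = 0.0664), GFP-negative replicate 3 (2.46, 0.0516) or GFP-positive replicate 3 (2.14, 0.0526).

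Entpd1 had 32.7, 35.7 and 30.4 CPM in Het GFP-negative and 84.7, 63.2 and 107 CPM in Het GFP-positive libraries. The GFP-negative values lay close together, and all were below the GFP-positive ones. Its fold change was 2.60 (log2 1.38, SE 0.34, adjusted p = 0.0453). The call was lost without any 1 of the 6 Het libraries (adjusted p 0.0604 to 0.147, log2 1.20 to 1.53), and with the recipient block it was held (adjusted p = 0.00103) also without any 1 Het recipient (0.00152 to 0.00873). CD39 is also carried by myeloid cells, and the myeloid sum moved with the sort. That sum was 186, 745 and 1515 CPM in the 3 Het GFP-negative and 459, 2063 and 3427 CPM in the 3 Het GFP-positive libraries. Both Entpd1 and the myeloid sum were highest in GFP-positive replicate 3. GFP-positive replicate 2 had less Entpd1 and a higher myeloid sum than GFP-positive replicate 1. In GFP-negative libraries the sum rose from replicate 1 to 3, while Entpd1 was highest in replicate 2 and lowest in replicate 3. The part of myeloid cells in the Entpd1 change was not tested.

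Tigit had 45.2, 21.0 and 29.0 CPM in Het GFP-negative and 87.3, 42.9 and 118 CPM in Het GFP-positive libraries. The groups overlapped, because GFP-positive replicate 2 lay just below GFP-negative replicate 1, which came from another recipient. Its log2 fold change was 1.40 (SE 0.35), and it missed the threshold without the block (adjusted p = 0.0511) and passed with it (log2 1.35, adjusted p = 0.00344). Without the block it also passed under 6 of 8 other scalings, filters and tools: DESeq2 (adjusted p = 0.00492; 8.21% of all genes called), limma-voom (0.0383; 4.22%), no low-count filter (0.00917), DESeq2 size factors (0.0476), upper-quartile scaling (0.0490) and removal of the dominant features (0.0464). It did not with a filter at 1 CPM or with the 2 groups alone. It passed too without GFP-negative replicate 1 (log2 1.73, adjusted p = 0.0389) or GFP-positive replicate 2 (1.68, 0.0257).

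Cd96 had 146, 217 and 167 CPM in Het GFP-negative and 53.1, 66.7 and 60.3 CPM in Het GFP-positive libraries. The groups lay far apart, and the GFP-positive libraries varied little (SD 6.84 CPM, n = 3). Its level was 2.95-fold lower (log2 -1.56, SE 0.27, adjusted p = 0.0114). The call was lost without GFP-negative replicate 2, the highest library (log2 -1.37, adjusted p = 0.0638).

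The remaining 5 genes did not pass the test in Het cells, with or without the block. With the block and a recipient left out, Btla passed without Het recipient 3 (log2 -0.82, adjusted p = 0.0210; 13.6% of all genes called) and Cd200 without Het recipient 1 (1.23, 0.0391; 12%). Havcr2, which encodes TIM-3, had 21.2, 20.2 and 37.2 CPM in GFP-negative and 22.9, 23.8 and 64.1 CPM in GFP-positive libraries (log2 fold change 0.52, adjusted p = 0.481). Ctla4 differed more between recipients than between sorts, with 70.1, 34.3 and 153 CPM in GFP-negative and 89.0, 35.1 and 169 CPM in GFP-positive libraries of recipients 1 to 3. Its log2 fold change was 0.20 (SE 0.55, adjusted p = 0.850). Cd160, a receptor that shares the ligand HVEM (Tnfrsf14) with BTLA, had a log2 fold change of 0.41 (SE 0.42, adjusted p = 0.585). Btla, at -0.44 (SE 0.24, adjusted p = 0.281), and Cd200, at 0.84 (SE 0.45, adjusted p = 0.270), also missed it.

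**Figure D2:**
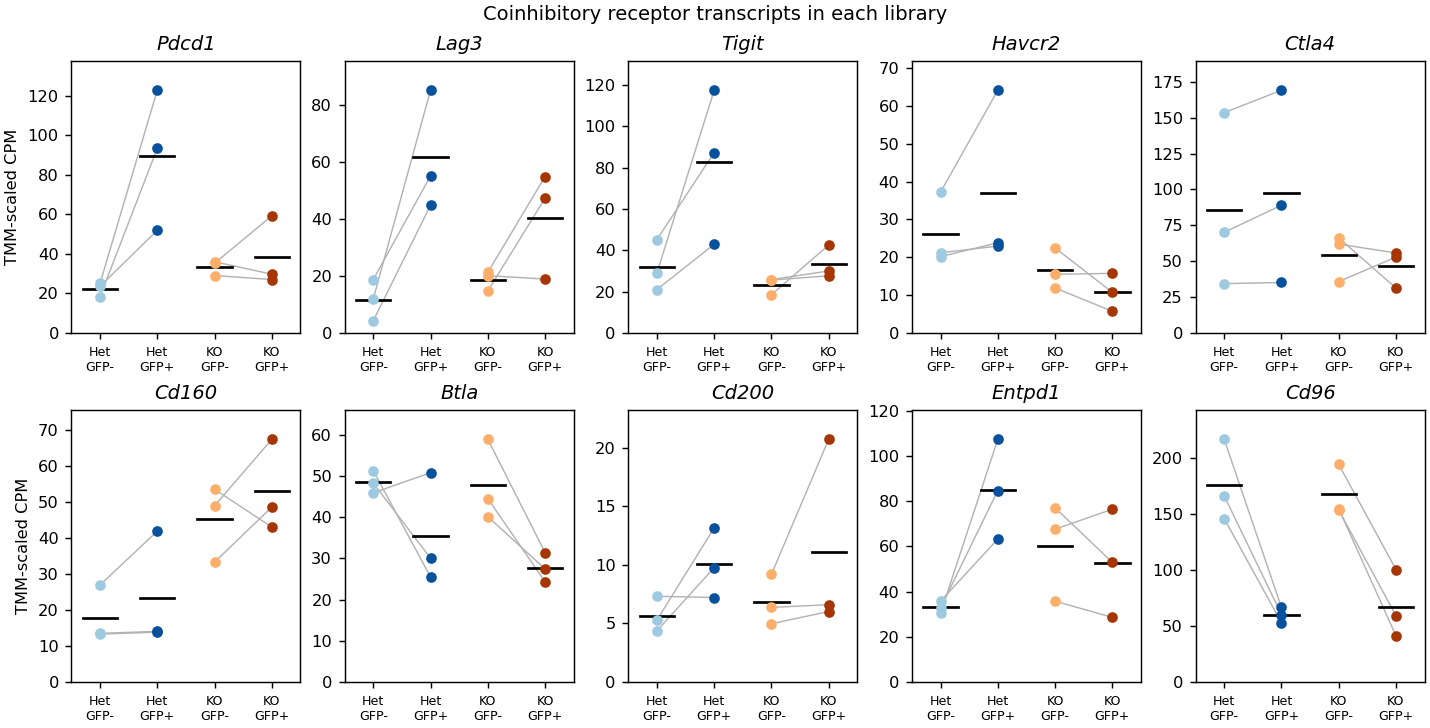
TMM-scaled CPM of each receptor gene in each of the 12 libraries (dots), by group, with group means (black bars) and grey lines joining the libraries of a recipient; each panel has its own axis from 0. Pdcd1, Lag3 and Entpd1 are higher in all 3 Het GFP-positive libraries than in any Het GFP-negative one, and Cd96 falls along all 6 lines.

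In KO cells, GFP-positive against GFP-negative, none of the 10 genes passed the test, which called 0.128% of all genes. An unadjusted p below 0.05 was found for 3 of 10 (Lag3, Btla and Cd96), against 17.5% of all genes. DESeq2 called 1 gene, Cd96 (log2 -1.28, adjusted p = 0.00155; 2.87% of all genes), and limma-voom called 0 (0.0302%). With the recipient block, Cd96 and Btla were called lower, 2 of 10 genes against 17.7% of all.

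Cd96 had 195, 155 and 154 CPM in KO GFP-negative and 101, 41.4 and 59.3 CPM in KO GFP-positive libraries, so the groups did not overlap. Its log2 fold change was -1.29 (SE 0.27), with an adjusted p = 0.108 without and 0.00114 with the block (log2 -1.37). Without the block it also passed with no low-count filter (adjusted p = 0.00769) and without KO GFP-positive replicate 1 (log2 -1.70, adjusted p = 0.0109), where 12.6% of all genes were called. The blocked call held without any 1 KO recipient (adjusted p 0.000229 to 0.0146).

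Btla had 44.5, 58.9 and 40.1 CPM in KO GFP-negative and 24.3, 31.4 and 27.5 CPM in KO GFP-positive libraries, again without overlap. Its log2 fold change was -0.81 (SE 0.25), with an adjusted p = 0.200 without and 0.0304 with the block (log2 -0.76). The blocked call was lost without any 1 KO recipient (adjusted p 0.0512 to 0.125).

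Pdcd1, which was called in Het cells, had 29.0, 35.2 and 36.0 CPM in KO GFP-negative and 27.0, 59.3 and 29.7 CPM in KO GFP-positive libraries. Only replicate 2 was higher in its GFP-positive library (log2 fold change 0.14, SE 0.33, adjusted p = 0.830), and limma-voom gave -0.08. Lag3 had 20.1, 21.3 and 14.7 CPM in KO GFP-negative and 18.9, 55.0 and 47.4 CPM in KO GFP-positive libraries. It was higher in recipients 2 and 3 and not in recipient 1 (log2 1.07, SE 0.48, adjusted p = 0.280). Tigit had 25.6, 25.8 and 18.5 CPM in KO GFP-negative and 27.6, 30.0 and 42.5 CPM in KO GFP-positive libraries. These groups did not overlap, with a log2 fold change of 0.53 (SE 0.36, adjusted p = 0.420). Non-overlapping groups, here those of Tigit, Btla and Cd96, were found for 20.3% of all genes in KO cells.

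Entpd1 in KO cells had 67.6, 35.8 and 77.1 CPM in GFP-negative and 76.4, 28.6 and 52.9 CPM in GFP-positive libraries, with no separation (log2 -0.15, SE 0.33, adjusted p = 0.823). Havcr2 had 15.5, 11.9 and 22.4 CPM in KO GFP-negative and 15.7, 5.71 and 10.7 CPM in KO GFP-positive libraries (log2 -0.53, SE 0.45, adjusted p = 0.523). Its lowest value rested on 8 counts, and in that recipient the myeloid sum was 608 CPM in the GFP-negative and 1211 in the GFP-positive library. Without KO recipient 1, the blocked fit called 4 genes in KO cells: Lag3 (log2 1.57, adjusted p = 0.00373) and Tigit (0.83, 0.0400) higher, Cd96 (-1.57, 0.000229) and Havcr2 (-1.05, 0.00784) lower. The same fit called 29% of all genes. Ctla4, Cd160 and Cd200 had adjusted p-values of 0.827, 0.769 and 0.521 without the block.

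**Figure D3:**
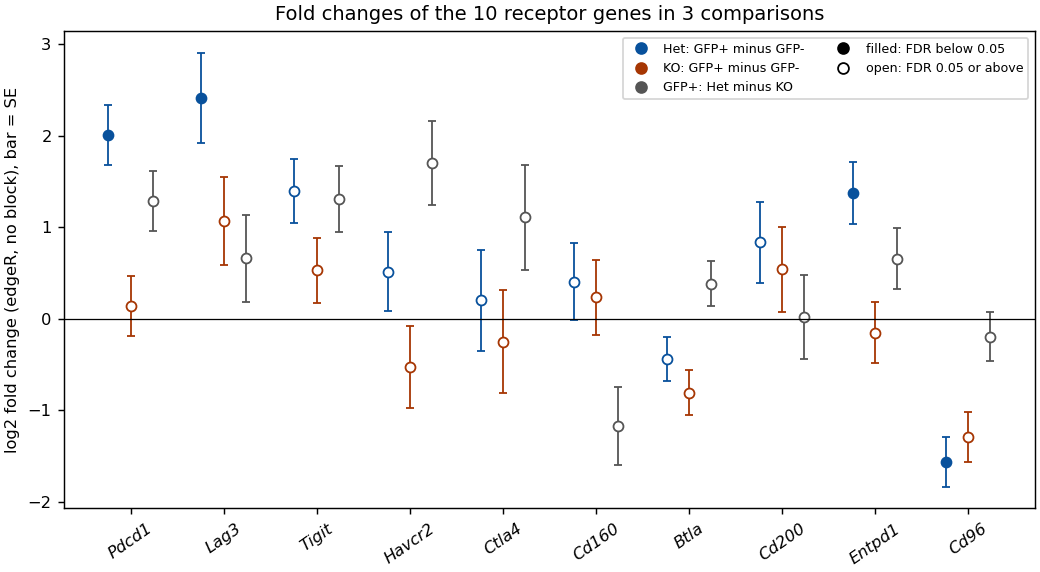
Log2 fold change of each receptor gene (edgeR, no block; bar, SE) for Het GFP-positive minus GFP-negative (blue), KO GFP-positive minus GFP-negative (orange-brown) and Het minus KO in GFP-positive cells (grey); filled points have an adjusted p below 0.05. The filled points are Pdcd1, Lag3, Entpd1 and Cd96 in the Het comparison, and all points of the other comparisons are open.

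GFP-positive cells of the 2 genotypes were compared to ask which genes depend on Eomes, per the design text. None of the 10 genes passed edgeR's test, in which 0.106% of all genes were called, or the fit with the recipient as a random effect (0.0906%). The unadjusted p was below 0.05 for 4 of 10 genes, against 6.22% of all: Pdcd1, Tigit and Havcr2, with higher levels in Het, and Cd160, with a lower level. DESeq2 called Havcr2 (log2 1.71, adjusted p = 0.0350) and Pdcd1 (1.25, 0.0497), against 0.7% of all genes, and limma-voom called 0 (0.0755%). The median log2 difference, Het minus KO, was 0.66 over the 10 genes and 0.01 over all genes.

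Havcr2 was at 22.9, 23.8 and 64.1 CPM in the Het and at 15.7, 5.71 and 10.7 CPM in the KO GFP-positive libraries, with no overlap (log2 1.70, SE 0.46, adjusted p = 0.324). Tigit, at 87.3, 42.9 and 118 against 27.6, 30.0 and 42.5 CPM, also did not overlap (1.31, SE 0.36, adjusted p = 0.324). Pdcd1, at 123, 51.9 and 93.4 against 27.0, 59.3 and 29.7 CPM, overlapped through replicate 2 of both groups, the libraries with the highest share of dominant features (1.29, SE 0.33, adjusted p = 0.287). Cd160 was at 41.9, 14.1 and 13.8 CPM in Het and at 67.4, 48.5 and 43.0 CPM in KO, so that every KO library was higher (-1.17, SE 0.43, adjusted p = 0.634). The 3 genes whose groups did not overlap compare with 7.48% of all genes. Each of these 4 reached p = 0.1 or 0.2 when the 3 Het and 3 KO libraries were compared by an exact two-sided permutation test, where 0.1 is the smallest value possible. The myeloid sum was 459, 2063 and 3427 CPM in these Het and 588, 1211 and 283 CPM in these KO libraries, and its part in the differences was not tested.

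Between the genotypes, Lag3 (log2 0.66, adjusted p = 0.947), Ctla4 (1.11, 0.848), Btla (0.39, 0.909), Entpd1 (0.66, 0.843), Cd96 (-0.19, 1.00) and Cd200 (0.02, 1.00) had no test support in GFP-positive cells. The direction of Cd200 changed with the scaling, from 0.02 to -0.01 with DESeq2 size factors.

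GFP-negative cells of the 2 genotypes gave no call among the 10 genes, or among any of the 13238 genes, by edgeR. The unadjusted p was below 0.05 for 2 of 10 genes (Cd160 and Entpd1), against 5.25% of all. DESeq2 called 0 of the 10 (0.332% of all genes), as did limma-voom (0.0151%). Cd160 was at 26.9, 13.5 and 13.3 CPM in Het and at 48.9, 33.3 and 53.5 CPM in KO GFP-negative libraries, without overlap (log2 -1.34, SE 0.42, adjusted p = 0.871). Cd160 was thus higher in every KO library than in the Het libraries of the same sort. Entpd1 was at 32.7, 35.7 and 30.4 CPM in Het and at 67.6, 35.8 and 77.1 CPM in KO GFP-negative libraries. Its groups met at 35.7 and 35.8 CPM (log2 -0.87, SE 0.33, adjusted p = 0.935). With Pdcd1 (18.3 to 25.0 against 29.0 to 36.0 CPM; log2 -0.59, adjusted p = 0.970), these 3 genes had groups that did not overlap, against 11.3% of all genes.

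Whether the GFP difference itself depended on the genotype was tested with the interaction term. None of the 10 genes passed edgeR's test (0.00755% of all genes did), with or without the block (0.0755%), and DESeq2 (0.0693%) and limma-voom (0 genes) called none of them. Pdcd1 had an interaction of 1.87 on the log2 scale (SE 0.46, adjusted p = 1.00; 0.110 with the block) and Entpd1 of 1.53 (SE 0.47, adjusted p = 1.00; 0.0838 with the block). These were the 2 of 10 genes with an unadjusted p below 0.05, against 1.99% of all genes. Pdcd1 passed the blocked test without Het recipient 2 (2.23, adjusted p = 0.0310; 0.0368% of all genes called) and Entpd1 without KO recipient 1 (1.81, 0.0256; 0.14%). The calls of Pdcd1, Lag3 and Entpd1 in Het and not in KO cells are therefore not shown to differ between the genotypes.

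Averaged over both genotypes, GFP-positive cells had higher Pdcd1 (log2 1.08, adjusted p = 0.0135), Lag3 (1.74, 0.00968) and Tigit (0.96, 0.0258) and lower Cd96 (-1.43, 0.00175) and Btla (-0.62, 0.0314). This was 5 of 10 genes, against 18.1% of all tested genes. With the recipient block Entpd1 (0.57, adjusted p = 0.00821) and Cd200 (0.64, 0.0373) were also called higher, 7 of 10 against 41.1%. Cd96, Pdcd1 and Lag3 stayed called without any 1 of the 12 libraries. The call of Tigit was lost without Het GFP-negative replicate 2 (adjusted p = 0.0618), KO GFP-negative replicate 1 (0.0510) or 3 (0.0567), or KO GFP-positive replicate 3 (0.0806). That of Btla was lost without Het GFP-negative replicate 2 (0.0685), Het GFP-positive replicate 1 (0.0536) or 2 (0.0646), KO GFP-negative replicate 1 (0.0598) or 2 (0.0506), or KO GFP-positive replicate 3 (0.0731). The blocked call of Cd200 was lost without Het recipient 2 or 3 or KO recipient 2 or 3, with an adjusted p up to 0.130.

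Within recipients, Cd96 was lower in the GFP-positive library in 6 of 6, by 0.95 to 1.90 on the log2 scale, and Tigit was higher in 6 of 6, by 0.11 to 2.01. Of all tested genes, 19.9% were lower and 17.7% higher in 6 of 6. The Cd96 differences were alike in the 3 Het recipients (-1.46, -1.70 and -1.46) and more spread in the KO recipients (-0.95, -1.90 and -1.37). Lag3, Cd160 and Cd200 were higher in 5 of 6 recipients, and Btla was lower in 5 of 6. The exceptions were KO recipient 1 for Lag3, KO recipient 3 for Cd160, Het recipient 1 for Cd200 and Het recipient 3 for Btla. Pdcd1, Entpd1, Havcr2 and Ctla4 were each higher in all 3 Het recipients and in 1 of 3 KO recipients.

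**Figure D4:**
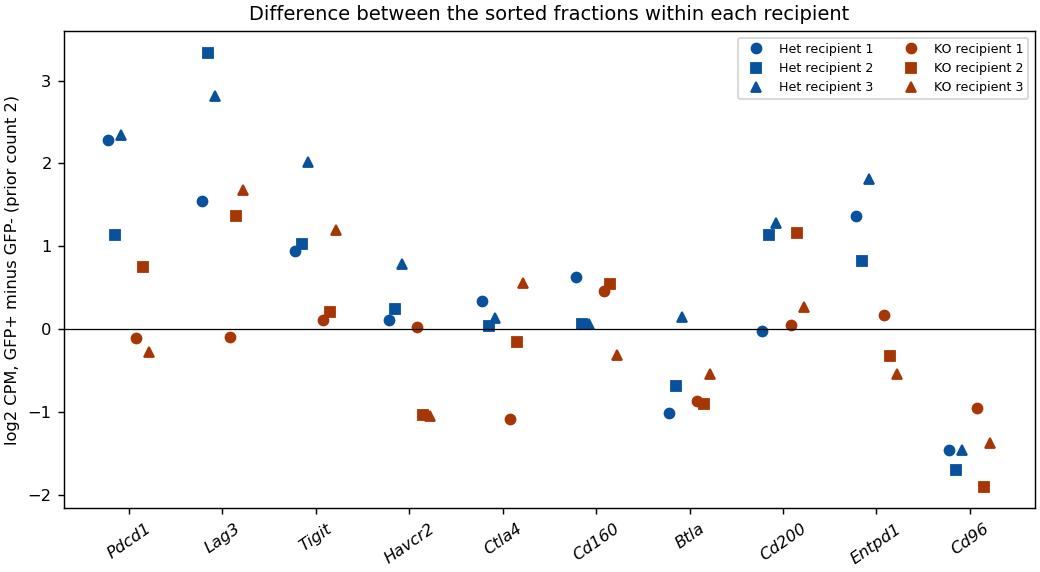
Difference in log2 CPM (prior count 2) between the GFP-positive and the GFP-negative library of each recipient, for the 10 receptor genes; blue symbols are the 3 Het and orange-brown symbols the 3 KO recipients, and the line marks no difference. All 6 points of Cd96 lie below the line (-0.95 to -1.90) and all 6 of Tigit above it (0.11 to 2.01).

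Across the 12 libraries Lag3 and Cd96 ran opposite to each other (Pearson r of log2 CPM -0.88), and Pdcd1, Lag3 and Tigit ran together (r 0.74 to 0.77). Btla, which was lower with GFP as Cd96 was, had r 0.64 with Cd96. These values describe 12 libraries that share recipients, the GFP sort and depth, so no p is given. By the same measure the 3 genes most like Cd96 were Ccr2, Cxcr6 and Sit1 (r 0.990, 0.989 and 0.983), those most like Pdcd1 were Sh2d2a, Stat3 and Rtkn (0.930, 0.913 and 0.903), and those most like Btla were Mpp5, Ccr7 and Icos (0.955, 0.932 and 0.918). For Lag3 they were Plscr3, Setbp1 and Il6st (0.946, 0.944 and 0.942), for Tigit Pabpc1l, Rnf152 and Neb (0.921, 0.914 and 0.909), and for Entpd1 Adrb1, Prf1 and Pald1 (0.943, 0.934 and 0.921). The first for the others were Sos2 for Havcr2 (0.919), Asb7 for Ctla4 (0.932), Hdac11 for Cd160 (0.906) and Tiam1 for Cd200 (0.918).

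Ligands and partners of these receptors were read next, as T cells carry some of them. Of 15 listed genes 12 were tested, and in Het cells 1 was called higher, against 3.45% of all genes. It was Cd80, which encodes a ligand of CTLA-4 (8.90 ± 0.58 CPM GFP-negative, 27.4 ± 13.2 GFP-positive, SD, n = 3; log2 1.62, adjusted p = 0.0339). With the block 4 were higher (Cd80, Ceacam1, Tnfrsf14 and Adora2a) and Nt5e was lower, 5 of 12 against 22.2% of all genes. The Cd80 call was lost without any 1 of 5 of the 6 Het libraries, all but GFP-positive replicate 3 (adjusted p up to 0.140), and with limma-voom (0.0528). No listed gene was called between genotypes, or in KO cells without the block, and with the block 4 of 12 were called in KO cells (Ceacam1, Tnfrsf14 and Adora2a higher, Nt5e lower), against 17.7% of all genes. Averaged over genotypes, 3 of the 12 genes were higher and 1 lower (18.1% of all genes were called). Among them were Tnfrsf14, the ligand of BTLA and CD160 (log2 1.10, adjusted p = 0.0327), and Nt5e, which encodes CD73, the enzyme that acts after CD39 (-1.52, adjusted p = 0.0228). The Tnfrsf14 call was lost without any 1 of 8 of the 12 libraries (adjusted p up to 0.0883), and that of Nt5e without Het GFP-negative replicate 2, KO GFP-negative replicate 1 or KO GFP-positive replicate 3 (up to 0.0623). The list's median log2 fold change in Het cells was 0.16, against -0.02 over all genes.

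Of 10 inhibitory signalling genes, 2 were called in Het cells without the block, both higher, against 3.45% of all genes. They were Ptpn11, which encodes SHP-2 (113 ± 6.44 and 187 ± 10.1 CPM, SD, n = 3; log2 0.73, adjusted p = 0.0320), and Cblb, which encodes a ubiquitin ligase (log2 1.08, adjusted p = 0.0389). The Ptpn11 call was lost without any 1 Het library (adjusted p 0.0609 to 0.146), and that of Cblb without any 1 GFP-negative library or GFP-positive replicate 3 (up to 0.161). Ptpn11 also missed the threshold with no low-count filter (0.0610), and Cblb with the 2 groups alone (0.0584). With the block 3 were higher in Het cells (Ptpn11, Cblb and Sh2d1a) and 2 lower (Ptpn6 and Pag1), against 22.2% of all genes. In KO cells the blocked fit called only Dok2, lower, against 17.7% of all genes. The blocked call of Dok2 was lost without any 1 KO recipient (adjusted p 0.0830 to 0.251), and that of Sh2d1a without any 1 Het recipient (0.0530 to 0.111). Those of Ptpn6 and Pag1 were lost without Het recipient 1 or 2 (up to 0.206 and 0.0921), and that of Ptpn11 without Het recipient 2 (0.0510). Averaged over genotypes 2 of the 10 genes were higher and Pag1, which encodes an adaptor that binds the kinase CSK, was lower (-0.47, adjusted p = 0.0352), against 18.1% of all genes. The Pag1 call was lost without any 1 of 7 of the 12 libraries (adjusted p up to 0.0771). The list's median in Het cells was 0.30.

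Of 10 other inhibitory receptors, 8 were matched by symbol and tested, and 2 were called in Het cells without the block, against 3.45% of all genes. In Het cells Cd244a was higher (3.68 ± 1.61 and 11.1 ± 2.31 CPM, SD, n = 3; log2 1.58, adjusted p = 0.0341) and Cd5, a negative regulator of T cell receptor signals, was lower (278 ± 44.0 and 170 ± 2.06 CPM, SD, n = 3; log2 -0.71, adjusted p = 0.0467). The Cd5 call was lost without any 1 Het library (adjusted p 0.0593 to 0.231), and that of Cd244a without replicate 1 or 2 of either Het sort (up to 0.169). With the 2 groups alone both missed the threshold (0.0687 and 0.0583). With the block Cd244a and Cd300a were higher and Lair1, Cd5 and Klrc1 lower in Het cells, against 22.2% of all genes called. The blocked call of Cd244a was lost without Het recipient 1 (adjusted p = 0.0741) or 2 (0.0581), and that of Cd5 without Het recipient 2 (0.106). In KO cells the blocked fit called Cd300a higher and Vsir, Klrg1 and Klrc1 lower, against 17.7% of all genes. Averaged over genotypes 2 were higher and 2 lower, 4 of 8 against 18.1% of all genes, including Klrc1, which encodes an NKG2 receptor chain (log2 -1.83, adjusted p = 0.0399), and Cd300a, which myeloid cells also carry (1.89, adjusted p = 0.0391). Each of these 2 calls was lost without any 1 of 8 of the 12 libraries (adjusted p up to 0.0992 for Klrc1 and 0.0912 for Cd300a), and Cd300a also missed the threshold with limma-voom (0.0561). The list's median in Het cells was 0.16.

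Among 10 transcription factors known to act on these receptors, 2 were called in Het cells without the block, against 3.45% of all genes. Tox was higher and Id2 lower in Het GFP-positive cells. With the block Prdm1 and Nfatc1 were also called higher and Tcf7 lower there, against 22.2% of all genes. Tox was at 6.52 ± 3.92 CPM in Het GFP-negative and at 147 ± 70.0 CPM in their GFP-positive partners (SD, n = 3; log2 4.51, SE 0.51, adjusted p = 0.00128). In KO cells Tox was at 12.7 ± 4.73 CPM GFP-negative and 42.3 ± 9.83 CPM GFP-positive (SD, n = 3), and it was called there with the block only. The blocked interaction of Tox with genotype was also called. In KO cells the blocked fit called Nfatc1 higher and Tcf7 and Id2 lower as well, against 17.7% of all genes. Id2 was at 378 ± 50.9 and 111 ± 35.3 CPM in Het cells (SD, n = 3; log2 -1.77, adjusted p = 0.0142), and its call was lost without GFP-negative replicate 2 (0.0608) or GFP-positive replicate 1 (0.0536) or 2 (0.0558). Tcf7, which encodes TCF-1, was lower on average over genotypes (-0.88, adjusted p = 0.0258), and its call was lost without Het GFP-negative replicate 2 (0.0686), KO GFP-negative replicate 1 (0.0693) or KO GFP-positive replicate 3 (0.0704). The median of this list in Het cells was 0.16.

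The authors' deposited table for Het GFP-positive against GFP-negative cells holds 1406 genes and lists 5 of the 10 receptor genes: Pdcd1 (log2 1.83), Lag3 (2.02), Tigit (1.21), Entpd1 (1.30) and Cd96 (-1.50). These are the 5 that the blocked fit called. The authors' deposited table for KO cells, of 388 genes, lists Btla (log2 -0.75) and Cd96 (-1.13). The authors' deposited table for Het against KO GFP-positive cells lists 77 genes and none of the 10 receptors.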

How the data were processed

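Total RNA of sorted CD4+ T cells was extracted with TRI reagent, depleted of ribosomal RNA and made into stranded libraries (TruSeq Stranded Total RNA Gold), per the labels' protocols. The submitters' processing notes name bcl2fastq 1.8.4, TopHat2 2.0.13, featureCounts 1.5.0-p1, DESeq2 1.6.1 and mm10, and the strand setting of the counting is not given in the sources used here. The authors deposited whole-number counts per gene, not normalized, as a matrix and as a file per library, and 0 cells differed between them. The authors also deposited DESeq2 results, per the file headers: mean normalized counts (a signal), log2 fold changes and their errors, a test statistic (a score), and p-values with adjusted p-values. These list genes with an adjusted p-value below 0.05 and were used for description, and the signs of the genotype table are KO over Het, as checked on 77 genes.

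Genes with low counts were dropped (filterByExpr, at least 10 counts and 15 in all), and the rest was scaled by TMM and tested in R 4.3.3 with edgeR 4.0.16 (quasi-likelihood, 1 mean per group over 12 libraries, two-sided). The Benjamini-Hochberg adjustment ran over all 13238 genes, with calls at 0.05. Totals of 2116894 to 18167236 counts, or 967089 to 14854302 outside 4 dominant features, set the precision. Labels give recipients but not separate donors, so p-values measure the spread between these libraries. Same-numbered libraries share a recipient, per the design text, and their deviations from group means correlated at r 0.241 to 0.617 in 6 of 6 recipients. Blocked fits used the recipient as a fixed block, or, between genotypes, as a random effect in limma-voom (limma 3.58.1, consensus correlation 0.467). Alternatives were other scalings, filters and tools (DESeq2 1.42.0), the 2 groups alone, each library left out and the block. Fits with the block and each recipient left out were added after seeing the data. The test was checked on simulated data.

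The receptor genes, marker and pathway lists and motifs were chosen with earlier results of these data known. One marker list is not reported here. Genes named besides the 10 receptors are, per list and comparison, the up to 2 called genes with the highest and the lowest log2 fold change, the 3 genes most correlated with each receptor, and Eomes. Single markers of cell types, Pdzk1 (an overlapping gene), Adora2a and list genes called only with the block were named after their values were seen. Promoters were searched over 250 bases before the start site. A search of 300 bases, which included those after the start site, was seen first and dropped so that no untranslated letters are printed. There the RUNX letters were in 6 of 9 genes (also Entpd1), against 16.8% of promoters.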

Additional observations from a re-analysis of the deposited data

How the results depend on the processing

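The calls of Pdcd1, Lag3, Entpd1 and Cd96 in Het cells kept their side of the threshold under every other scaling, filter, tool, sample choice and block that was tried. Left-out libraries changed those of Lag3, Entpd1 and Cd96, and that of Pdcd1 held without any 1 Het library. Of 520 comparisons of a receptor's change with another setting, 493 kept direction and side, 17 newly passed and 10 reversed. Of 660 with a library or recipient left out, 568 kept both, 25 newly passed, 20 lost the call and 47 reversed. No reversed value belonged to a called change.

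The number of receptors called went from 0 to 2 in GFP-positive Het against KO cells, with DESeq2 and with no low-count filter. In KO cells it went from 0 to 1 with DESeq2 and with no low-count filter, and to 2 with the replicate block by recipient. With the block it was 4 without KO recipient 1 and 1 without KO recipient 2 or 3. For the interaction, the block gave 1 without Het recipient 2 and 1 without KO recipient 1. With single libraries left out it ran from 1 to 4 in Het cells, 0 to 1 in KO cells and 3 to 6 for the average over genotypes. Other counts of receptors called moved by at most 1.5 times. Of all genes, 457 were called in Het cells and 17 in KO cells without the block, and 2944 and 2349 with it.

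Reversed directions by setting were as follows, in log2 units, and the cause was not tested. Cd200 between GFP-positive groups went from 0.02 to -0.023 with DESeq2, -0.0091 with its size factors, -0.052 with the 2 groups alone, -0.020 with upper-quartile scaling and -0.025 without dominant features. Pdcd1 in KO cells went to -0.082 with limma-voom. Averaged over genotypes, Havcr2 (-0.0049) went to 0.013 with DESeq2 size factors, 0.030 with limma-voom and 0.0098 with upper-quartile scaling, and Ctla4 (-0.024) went to 0.00065 with upper-quartile scaling. With the block and a recipient left out, in KO cells Pdcd1 went to -0.20 without KO recipient 2 and Ctla4 to 0.27 without KO recipient 1. The interaction went to -0.078 for Ctla4 and 0.044 for Cd96 without KO recipient 1, to -0.18 for Cd160 without Het recipient 1 and -0.22 without KO recipient 3, and to -0.069 for Btla without Het recipient 3. Averaged over genotypes, Havcr2 went to 0.054 without KO recipient 3, and Ctla4 to 0.0015 without Het recipient 2, 0.020 without Het recipient 3 and 0.23 without KO recipient 1.

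With single libraries left out, the changes that reversed had these ranges. In Het cells they were -0.14 to 0.86 for Havcr2, -0.42 to 0.93 for Ctla4 and -0.37 to 0.83 for Cd160. In KO cells they were -0.24 to 0.35 for Pdcd1, -0.12 to 0.85 for Cd200 and -0.50 to 0.10 for Entpd1. Between genotypes in GFP-positive cells they were -0.31 to 0.65 for Cd200 and -0.44 to 0.19 for Cd96. In GFP-negative cells they were -0.10 to 1.01 for Ctla4, -0.12 to 0.16 for Btla and -0.13 to 0.18 for Cd96. For the interaction they were -0.17 to 1.17 for Ctla4, -0.60 to 0.58 for Cd160, -0.031 to 0.95 for Cd200 and -0.50 to 0.14 for Cd96. For the average over genotypes they were -0.33 to 0.17 for Havcr2, -0.33 to 0.35 for Ctla4 and -0.074 to 0.54 for Cd160. Levels were given as CPM and as CPM per kilobase. Depth limits Havcr2 and Cd200 most, with as few as 8 and 25 counts in a library.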
